A study of Mus musculus with 2 samples.

Results

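Nkx2-1, Gata6 and 8 further transcription factors of epithelial identity were measured in the developing mouse lung. The set held the 3 grainyhead-like genes Grhl1, Grhl2 and Grhl3, the epithelium-specific ETS genes Elf3, Elf5 and Ehf, the Krüppel-like gene Klf5, and Cebpa of the C/EBP family. The members were taken by name. All 10 were found by symbol among the 43346 mouse genes of the deposited tables, with 31 of the 103639 mouse transcripts.

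Lung tissue of strain B6NCrl at embryonic day 14.5 was sequenced as total RNA in 1 group of 2 libraries, numbered biological replicates 1 and 2. Each library started from 10.0 ng of RNA above 200 nt, with spike-in RNA added. No treatment, genotype or second age was compared, so the data give levels and the difference between 2 libraries. The labels call each sample pooled male and female and also describe a lung of pup 1, so the number of animals per library is not known. Counts of sex-linked genes went against the pooled label. The 4 Y-linked genes examined summed to 7072 counts in replicate 1 and 4 in replicate 2, while Xist had 18.5 and 27580 counts. All 10 genes are autosomal. The libraries were collected on different days, and sex, collection day and replicate number cannot be told apart.

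Epithelial organs are specified and kept epithelial by layered transcription factors. Nkx2-1 is a homeodomain factor of the lung and thyroid lineages, without which the trachea and lung do not form normally, and it activates surfactant and secretoglobin genes. Gata6 is a zinc finger factor of endoderm that is also known from heart and smooth muscle. Grainyhead-like factors maintain genes of cell junctions, and the ETS factors Elf3, Elf5 and Ehf, Klf5 and Cebpa act mostly later, in branching, differentiation and maturation of the lung lining.

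Summed counts on mouse genes were 31940637 in replicate 1 and 33167255 in replicate 2. Spike-ins took 4.94% and 3.96% of all counts. Levels are given in TPM, the deposited unit of transcript abundance, which is corrected for length and can be compared between genes. The median of 21474 protein-coding genes was 4.09 and 4.11 TPM. In whole tissue, fewer cells of a type and less RNA per cell cannot be told apart.

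Epithelium was present beside the other lung tissues. Epithelial markers were all detected, meaning at 1 TPM or more in each library (12 of 12), led by the adhesion gene Epcam at 226 ± 0.544 TPM (SD, n = 2), with a list median of 77.9 and 79.0 TPM. Lung mesenchyme (12 of 12 detected), smooth muscle (6 of 6), endothelium (10 of 10) and macrophages (10 of 10) were present too. Heart muscle markers differed between the libraries. Their sum was 664 TPM in the first library and 124 TPM in the other, and 6 of 12 were detected in both. Of 7 thyroid markers none was detected, and Pax8, Foxe1 and Slc26a4 had 0 counts, a result compatible with up to 3 counts in each library. These limits and all counting intervals below cover counting error only.

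All 10 genes reached the detection limit of 1 TPM in replicates 1 and 2, over a 41-fold range of mean level. Nkx2-1 led and Grhl1 was lowest. The median member stood at 6.83 and 7.39 TPM. Of the summed TPM of the set, 148 and 156 TPM, Nkx2-1 alone took 50.3% and 49.2%. From highest to lowest the order was Nkx2-1, Gata6, Klf5, Grhl2, Elf3, Elf5, Cebpa, Ehf, Grhl3 and Grhl1. The 5 genes above 5 TPM had means of 75.6 ± 1.71, 25.1 ± 0.834, 15.6 ± 1.89, 10.6 ± 1.90 and 10.3 ± 0.884 TPM in that order (SD, n = 2). The 5 below it had 4.11 ± 0.339, 4.03 ± 0.361, 2.52 ± 0.219, 2.31 ± 0.417 and 1.85 ± 0.163 TPM. By their 2 TPM values, neighbours in that order did not overlap in 6 of 9 pairs. Grhl2 and Elf3, Elf5 and Cebpa, and Ehf and Grhl3 overlapped, so their order is not resolved by these 2 libraries. Each TPM value was deposited with an interval, and by these some of the 6 pairs overlapped too. Klf5 reached down to 12.8 TPM (replicate 1) and Grhl2 up to 13.4 (replicate 2). Cebpa reached down to 3.20 (replicate 2) and Ehf up to 4.21 (replicate 1). Grhl3 reached down to 1.63 (replicate 2) and Grhl1 up to 2.27 (replicate 1).

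**Figure D1:**
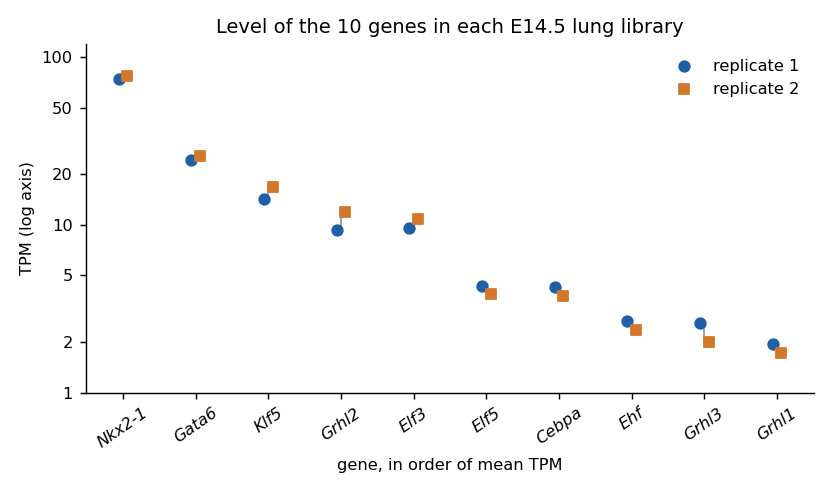
TPM of each gene (log axis) in replicate 1 (circles) and replicate 2 (squares), in order of mean TPM. Nkx2-1 stands near 75 in both libraries, about 3 times Gata6, and 5 genes lie under 5 TPM.

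Nkx2-1 (ENSMUSG00000001496.11, chr12:56531958-56536908, minus strand, GRCm38) had 74.4 TPM from 3671 counts in replicate 1 and 76.9 TPM from 3774 counts in replicate 2. Both libraries placed it near percentile 90 of protein-coding genes (90.7 and 90.5). Its level was 3.04 times that of Gata6 in replicate 1 and 2.99 times in replicate 2. Measured against Epcam, the level of Nkx2-1 was 0.330 and 0.340 of that gene's. The forkhead factor gene Foxa2, a partner in the endoderm, stood below it, with an Nkx2-1 to Foxa2 ratio of 2.27 and 2.21.

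Nkx2-1 has 2 annotated transcripts with different starts and the same coding region of 1116 nt. Nkx2-1-202 starts at position 56535106 and carried 87.9% of the gene's TPM in replicate 1 and 91.1% in replicate 2. Nkx2-1-201 starts upstream at position 56536908 and carried 12.1% and 8.95%, from 545 and 417 estimated counts with posterior SDs of 43.3 and 38.3. By these estimates the downstream start led in both libraries. Only 33 nt and no exon junction are found in Nkx2-1-202 alone, beside 600 nt in Nkx2-1-201 alone. The scaled difference of Nkx2-1-201 between the libraries was -2.26 combined SDs, where the SD joins the posterior and counting errors of both libraries. Both transcripts encode the same 372 codons, so the models differ in their untranslated part.

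The RefSeq table of promoter windows (GRCm38.p6) holds a window for the upstream start only. It is shown because this start was the minor of the pair. The 250 bases before it, chr12:56536909-56537158 on the minus strand, are printed 5′ to 3′ with CG dinucleotides in capitals.
Nkx2-1 upstream start: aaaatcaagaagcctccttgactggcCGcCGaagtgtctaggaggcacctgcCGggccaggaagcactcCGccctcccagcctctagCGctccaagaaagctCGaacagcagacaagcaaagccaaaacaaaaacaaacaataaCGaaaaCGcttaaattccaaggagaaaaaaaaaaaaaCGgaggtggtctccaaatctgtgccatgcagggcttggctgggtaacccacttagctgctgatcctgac
This stretch holds 9 CG dinucleotides. The whole window of 300 bases holds 12, beside a median of 7 over 32817 windows, and its GC content is 53.7% beside a median of 52.7%. None of the 7 motifs searched in the promoter windows matched in it.

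An antisense gene, Gm26973, overlaps the 5′ part of the Nkx2-1 locus on the other strand. It had 68 and 65 counts, and no exon of it overlaps an exon of either Nkx2-1 transcript. The other NK2 homeobox genes were near absent. Nkx2-1 took 97.9% and 99.6% of the summed TPM of 7 NK2 genes. Nkx2-5, a heart factor, had 1.29 TPM (41 counts) in replicate 1 and 0.19 TPM (6 counts) in replicate 2, in the same direction as the heart marker sums of 664 and 124 TPM, whose part in this was not tested and whose list includes Nkx2-5 itself. Nkx2-3, Nkx2-4 and Nkx2-6 had 0 counts in both libraries.

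Genes known to depend on Nkx2-1 in the lung were expressed at widely different levels. Of 11 genes in this list 8 were detected. The surfactant gene Sftpc had 2127 and 2184 TPM, 28.6 and 28.4 times the level of Nkx2-1. The tight junction gene Cldn18 had 158 and 141 TPM, the secretoglobin gene Scgb3a2 136 and 96.7 TPM, and the surfactant gene Sftpb 26.1 and 24.3 TPM. Sftpd, a surfactant collectin gene that rises later in lung maturation, had 0 counts in both libraries. The list's median level was 13.1 and 12.7 TPM.

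Gata6 (ENSMUSG00000005836.8, chr18:11052064-11085635, plus strand) had 24.5 TPM from 1691 counts in replicate 1 and 25.7 TPM from 1779 counts in replicate 2. The 2 values were close, at percentiles 74.2 and 74.3 of protein-coding genes. Gata6 is not the highest GATA gene of this tissue. Gata5 had 29.3 and 34.5 TPM and took 42.2% and 46.5% of the summed TPM of the 6 GATA genes, beside 35.2% and 34.6% for Gata6. Gata2, a factor of blood and endothelium, had 7.68 and 7.22 TPM. Gata4, a factor of heart and other mesoderm and endoderm, had 4.48 and 3.22 TPM, lower in replicate 2 like the heart markers above, whose part was not tested. Gata3 had 2.66 and 2.31 TPM, and the erythroid factor gene Gata1 0.87 and 1.29 TPM.

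Both FOG genes, whose proteins bind GATA factors and modulate them, were detected. Zfpm2 had 6.88 and 7.27 TPM and Zfpm1 2.08 and 2.31 TPM. The 2 tables hold 1 transcript of Gata6. On the other strand 1010001N08Rik, with 70 and 55 counts, shares 93 nt of exon with it. The sources used here do not give whether counting used strand, so reads from such overlaps cannot be told apart.

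Klf5 (ENSMUSG00000005148.7, chr14:99298691-99315036, plus strand), a zinc finger factor of proliferating and maturing epithelia, ranked below Nkx2-1 and Gata6. It had 14.3 TPM from 516 counts in replicate 1 and 16.9 TPM from 615 counts in replicate 2, at percentiles 65.0 and 67.1. The higher value was in replicate 2, and its level was 6.33% and 7.48% of Epcam. The deposited transcript is 1721 nt long while the GENCODE M21 model is 3352 nt, so its TPM rests on the shorter model. Klf5 took 7.30% and 8.61% of the summed TPM of 17 KLF genes, of which 14 were detected. The widely expressed genes Klf3 (30.9 and 33.0 TPM), Klf10 (32.2 and 28.5), Klf13 (25.6 and 23.4) and Klf6 (24.0 and 24.1) stood above it. Klf17 had 0 counts in both libraries.

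Grhl2 was the leading grainyhead-like gene. Grhl2 (ENSMUSG00000022286.11, chr15:37233036-37363569, plus strand), which maintains junction genes of simple epithelia, had 9.30 TPM from 845 counts in replicate 1 and 11.98 TPM from 1054 counts in replicate 2. Grhl3 (ENSMUSG00000037188.7, chr4:135541888-135573630, minus strand), a factor of skin barrier formation and neural tube closure, had 2.60 TPM from 156 counts and 2.01 TPM from 121 counts. Grhl1 (ENSMUSG00000020656.11, chr12:24572283-24617391, plus strand), known for desmosome genes of the skin, had 1.96 TPM from 142 counts and 1.73 TPM from 130 counts. Grhl2 was higher in replicate 2, while Grhl1 and Grhl3 were lower there. Grhl2 took 67.1% and 76.2% of the summed TPM of the 3 genes, Grhl3 18.8% and 12.8%, and Grhl1 14.1% and 11.0%. The related CP2 genes Ubp1 (34.1 and 35.2 TPM) and Tfcp2 (11.8 and 11.5 TPM), which are not restricted to epithelia, were above the level of Grhl2 in replicate 1, and Tfcp2 was below it in replicate 2. Tfcp2l1 had 0.59 and 1.13 TPM from 120 and 103 counts, so its 2 scales differ in direction.

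Genes known to depend on grainyhead-like factors were mostly present. Of 10 in the list 8 were detected, with a median of 22.9 and 24.1 TPM. Epcam had 225.6 and 226.3 TPM, the claudin gene Cldn3 109 and 111 TPM, the E-cadherin gene Cdh1 70.3 and 68.7 TPM, and the claudin gene Cldn4 33.0 and 34.3 TPM. Epcam and Cdh1 also stand in the epithelial marker list. Dsg1a, a desmosome gene of skin, had 0 counts in both libraries. Of 10 markers of squamous epithelium 3 were detected, Sfn (8.14 and 8.59 TPM), Krt10 (6.02 and 6.47 TPM) and Krt15 (3.47 and 3.18 TPM), and the list median was 0.615 and 0.505 TPM. Dsg3, a desmosome gene of that list, had 0 counts in both libraries.

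Grhl2 reads were spread over 4 of its 5 transcripts. Grhl2-201, which spans the whole locus, carried 64.3% and 63.1% of the gene's TPM, and the shorter coding models Grhl2-203 12.4% and 9.33% and Grhl2-204 3.28% and 9.27%. The shares of Grhl2-204 rested on 3.62 and 13.25 estimated counts, with posterior SDs of 3.35 and 4.85. By counts in place of TPM, Grhl2-201 held 76.5% and 77.8% and Grhl2-204 0.43% and 1.26%. Only 7 nt of Grhl2-201 are found in no other transcript of the gene. The non-coding model Grhl2-205, which starts far inside the gene at position 37318403, carried 20.1% and 18.3%, from 147 and 173 estimated counts. Grhl2-201, Grhl2-204 and Grhl2-205 had more estimated counts in replicate 2, and Grhl2-203 had 47.4 there beside 48.6 in replicate 1. At the 5′ end lies the antisense gene Gm16136, with 250 and 279 counts (12.8 and 14.7 TPM). It shares 169 nt of exon with Grhl2-201 and with Grhl2-203, and 102 nt with Grhl2-204. Reads over these stretches cannot be told apart.

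Grhl1 has 2 coding transcripts with separate starts, and the estimates between them were not stable. Grhl1-202, from position 24572283, carried 68.5% of the gene's TPM in replicate 1 and 96.1% in replicate 2. Grhl1-201, from position 24580749, carried 31.5% and 3.94%, from 41.0 and 4.54 estimated counts with posterior SDs of 19.7 and 12.9. The difference was -1.52 combined SDs, within what the allocation of shared reads leaves uncertain. Only 35 nt of Grhl1-201 are found in no other transcript of the gene.

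The beginnings of the coding regions are shown because they separate the Grhl1 products. They come from GENCODE M21 transcripts on GRCm38, with bases of 1 transcript alone in capitals and shared bases in lower case.
Grhl1-202, first 60 coding bases: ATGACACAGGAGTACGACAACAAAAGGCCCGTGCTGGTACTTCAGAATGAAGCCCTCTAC
Grhl1-202, join to the shared exon: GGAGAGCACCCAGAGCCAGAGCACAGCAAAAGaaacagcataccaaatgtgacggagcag
Grhl1-201, first 60 coding bases: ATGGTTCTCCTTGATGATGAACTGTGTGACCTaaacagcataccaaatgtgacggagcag
Grhl1-202 has 278 coding bases of its own and Grhl1-201 has 32, after which 1576 bases are shared. The coding region of Grhl1-202 is longer by 246 nt, or 82 codons.

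The stretches before both Grhl1 starts differ in base composition and are shown for that reason, from RefSeq on GRCm38.p6, plus strand, 250 bases each, with CG dinucleotides in capitals. The upstream stretch is chr12:24572037-24572286 and the downstream stretch chr12:24580469-24580718. They end before RefSeq starts that lie 4 nt from the start of Grhl1-202 and 30 nt from that of Grhl1-201. The Grhl1-201 model begins at its first coding base, position 24580749.
Grhl1 upstream start: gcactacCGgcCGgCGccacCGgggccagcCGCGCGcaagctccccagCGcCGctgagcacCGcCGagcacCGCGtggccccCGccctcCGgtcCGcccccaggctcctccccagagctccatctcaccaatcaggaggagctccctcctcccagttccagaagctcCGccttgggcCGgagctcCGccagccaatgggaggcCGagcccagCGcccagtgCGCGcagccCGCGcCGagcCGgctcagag
Grhl1 downstream start: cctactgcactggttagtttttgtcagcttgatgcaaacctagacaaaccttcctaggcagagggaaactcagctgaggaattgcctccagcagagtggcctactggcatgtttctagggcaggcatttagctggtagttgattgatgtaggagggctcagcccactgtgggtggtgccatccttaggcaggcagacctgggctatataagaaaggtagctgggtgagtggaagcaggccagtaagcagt
The upstream stretch holds 27 CG dinucleotides and the downstream stretch 0. Over the windows of 300 bases the upstream start had 35 CG dinucleotides and 75.3% GC, and the downstream start 0 and 51.3%. The start that carried the larger share in both libraries is the one rich in CG.

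Windows of 300 bases were held for 6 of the 10 genes, 8 windows in all, and were searched on both strands for 7 motifs. The Elf5 window at the RefSeq start 103412098 lies 385 nt from the nearest model start. The motifs were ACCGGTT (grainyhead-like), AGATAAG (the GATA factors), CACTTGA (Nkx2-1), TTGCNNCAA (C/EBP), GGGCGGG (GC box), CCGGAAG (ETS) and TATAAA (the TATA box). Of all 32817 windows, 1.01% held the grainyhead-like motif, 3.05% the GATA motif, 3.06% the Nkx2-1 motif, 2.08% the C/EBP motif, 25.6% the GC box, 8.86% the ETS motif and 13.6% the TATA box. The 8 windows held 3 matches in all, and none of these overlapped another. The upstream Grhl1 window had a GC box on the minus strand at -170 from the start. The downstream Grhl1 window had a C/EBP motif on the minus strand at -222. The third was the TATAAA match of Cebpa. A match describes letters and does not show binding.

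Elf3, Elf5 and Ehf were detected in that order. Elf3 (ENSMUSG00000003051.9, chr1:135253575-135258568, minus strand), a factor of simple and barrier epithelia, had 9.65 TPM from 393 counts in replicate 1 and 10.9 TPM from 438 counts in replicate 2. Elf5 (ENSMUSG00000027186.10, chr2:103411688-103450989, plus strand), known from distal lung buds and the mammary gland, had 4.35 TPM from 179 counts and 3.87 TPM from 151 counts. Ehf (ENSMUSG00000012350.11, chr2:103263433-103303278, minus strand), a neighbour of Elf5 on the same chromosome, had 2.67 TPM from 155 counts and 2.36 TPM from 126 counts. Elf3 was higher in replicate 2 and the other two were lower there. Elf3 stood 2.22 and 2.82 times above Elf5, and 3.61 and 4.62 times above Ehf. Within the 4 epithelium-specific ETS genes Elf3 took 54.3% and 60.8% of the summed TPM, Elf5 24.5% and 21.6%, Ehf 15.0% and 13.2%, and the goblet cell factor gene Spdef 6.14% and 4.46%. The broadly expressed relatives Elf2 (45.1 and 46.9 TPM) and Elf1 (15.5 and 16.3 TPM) were higher than all 3.

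Elf3 has 2 coding transcripts in use. Elf3-202 carried 59.97% and 62.8% of the gene's TPM and Elf3-201 36.5% and 32.1%. A retained intron model, Elf3-203, carried 3.51% and 5.11%. The difference between the coding models is shown because it changes the protein by 20 codons. Both lines give coding bases between chr1:135257207-135257634 on the minus strand, from GENCODE M21, with the 60 bases found in Elf3-201 alone in capitals.
Elf3-201: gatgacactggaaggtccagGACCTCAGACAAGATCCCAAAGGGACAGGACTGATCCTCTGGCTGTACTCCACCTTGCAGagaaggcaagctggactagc
Elf3-202: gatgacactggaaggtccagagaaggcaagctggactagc
The 60 bases lie at chr1:135257227-135257286, and their length keeps the reading frame. The antisense gene Gm26642 shares 162 nt of exon with both coding models, and had 11.8 and 6.58 counts.

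Elf5 transcripts from the group of starts between positions 103424062 and 103424828 carried 95.1% and 90.1% of its TPM. Those from the upstream starts, at 103411688 and 103411713, carried 1.52% and 3.36%. The leading model Elf5-201 carried 79.5% and 70.2%, from 164 and 129 estimated counts, a scaled difference in counts of -2.02 combined SDs. Ehf-201 led Ehf with 50.8% and 40.1%, from 132 and 92.7 estimated counts, a scaled difference in counts of -2.37 combined SDs. Counts of the whole gene fell too, from 179 to 151 for Elf5 and from 155 to 126 for Ehf. Neither difference in counts measures a change of share. The minor Ehf models moved between the libraries on few reads. Ehf-204 went from 34.99% on 13.5 counts to 1.20% on 0.41 counts, and Ehf-202 from 10.2% on 7.31 counts to 38.8% on 24.8 counts. By counts in place of TPM, Elf5-201 held 91.5% and 85.4% and Ehf-201 85.4% and 73.5%.

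**Figure D2:**
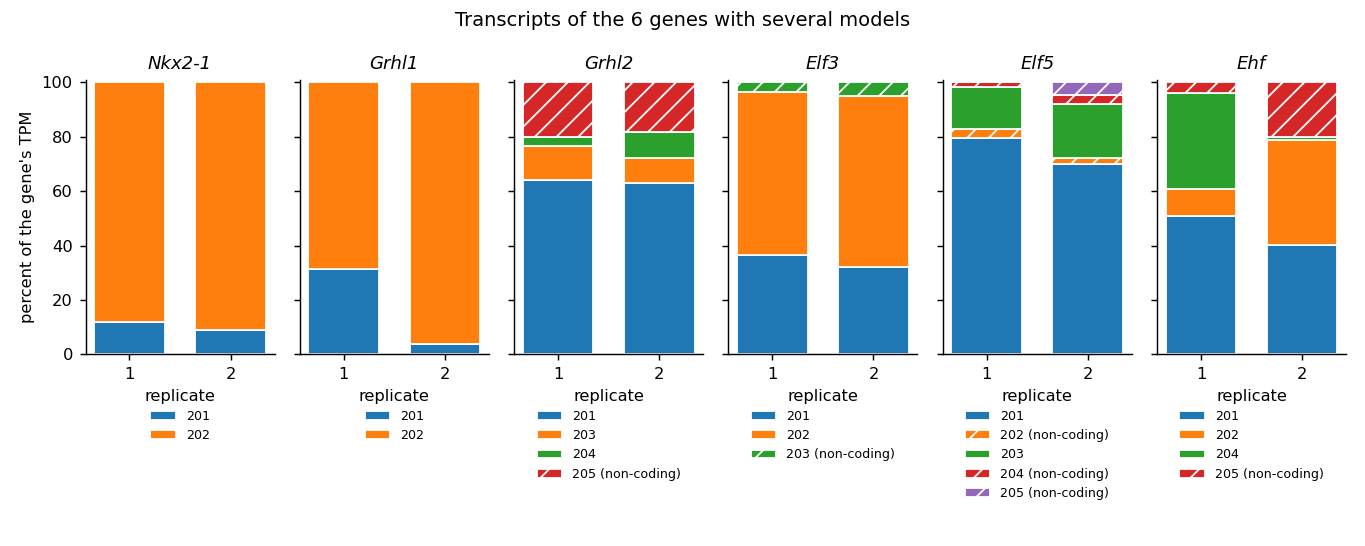
Percent of each gene's TPM carried by its transcripts in replicates 1 and 2, for the 6 genes with several models (hatched: non-coding; models at 0 in both libraries are left out). The leading model is the same in both libraries for all 6 genes, and the minor shares of Grhl1 and Ehf differ most.

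Over all 6 genes with several models, 27 transcripts in all, the leading transcript was the same in both libraries. Counts of 3 of these 27, Nkx2-1-201, Elf5-201 and Ehf-201, differed by over 2 combined SDs. Of the 31 transcripts 7 had 0 counts in both libraries, 3 of which are annotated as incomplete. Of the 24 coding and 7 non-coding models, no non-coding model led its gene. Gata6, Grhl3, Klf5 and Cebpa have 1 model each.

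Cebpa (ENSMUSG00000034957.9, chr7:35119293-35121928, plus strand), a leucine zipper factor of alveolar type II cell maturation and of liver and fat, had 4.28 TPM from 242 counts in replicate 1 and 3.77 TPM from 214 counts in replicate 2. The lower value was in replicate 2. Cebpa took 2.79% and 2.28% of the summed TPM of the 7 C/EBP genes. Cebpb (57.7 and 62.5 TPM), a factor of stress and inflammatory responses, Cebpd (33.8 and 35.9 TPM) and Cebpg (28.6 and 31.98 TPM) were each far higher. Liver, another tissue rich in Cebpa, had 3 of 10 markers detected and a median of 0.375 and 0.94 TPM.

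Cebpa was the only member whose window held the exact letters TATAAA, at -30. Near matches, such as tatataag in the downstream Grhl1 stretch, were not searched for. The 50 bases before the Cebpa start, chr7:35119243-35119292 on the plus strand (RefSeq, GRCm38.p6), show the match in capitals.
Cebpa: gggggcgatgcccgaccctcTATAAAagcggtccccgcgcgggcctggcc
The window of 300 bases had 67.3% GC and 29 CG dinucleotides. On the other strand Gm45091 shares 51 nt of exon with Cebpa, but it is not among the deposited genes and has no counts.

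**Figure D3:**
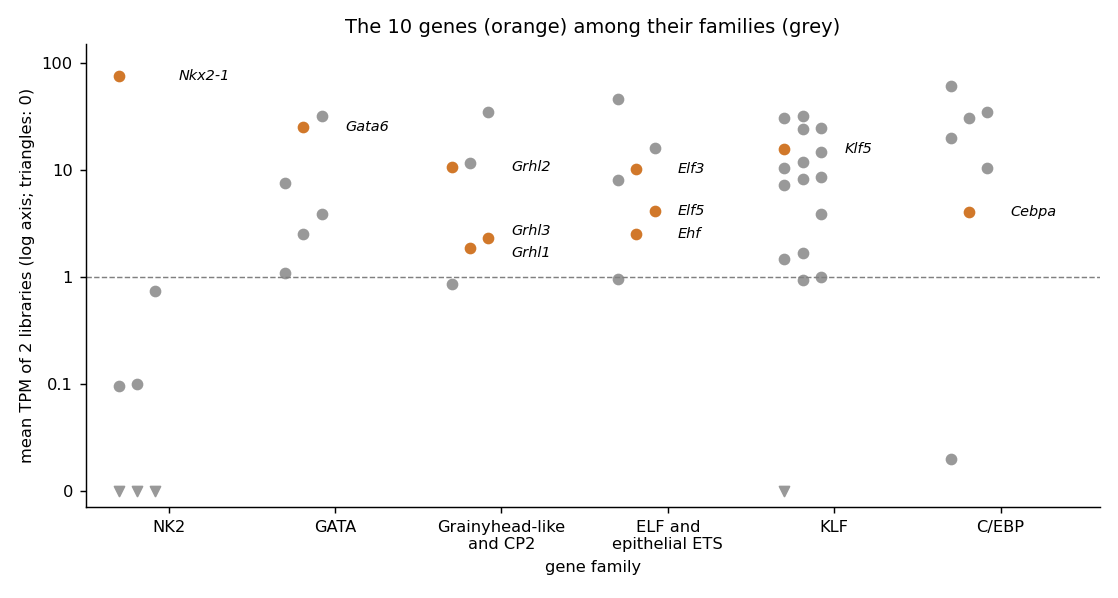
Mean TPM of the 2 libraries (log axis) for every gene of the 6 families, with the 10 genes in orange and labelled, the others in grey, triangles at 0 and a dashed line at 1 TPM. Nkx2-1 leads its family by a wide margin, while Gata6, Grhl2, Elf3, Klf5 and Cebpa each have relatives at higher levels.

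The 10 genes were next compared between the 2 libraries. The ratio is replicate 2 over replicate 1 on the log2 scale, from counts scaled by TMM. The test was binomial, exact and two-sided on the pair of counts, with Benjamini-Hochberg adjustment over the 14870 genes with a mean of 1 TPM or more. A gene was called at an adjusted p under 0.05 and at least a 2-fold ratio. The test compares 2 libraries against counting error only. Variation between libraries was not estimated, so a low p-value may reflect a technical difference.

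None of the 10 genes was called, beside 1.14% of all genes tested (169 of 14870, 53 or 0.356% higher and 116 or 0.78% lower in replicate 2). With spike-in counts as the scale the median ratio of all genes moves up by 0.34, and 70% of called genes are higher in place of 31.4%. Without the 2-fold rule, Grhl2 alone passed (adjusted p = 0.0014, exact binomial test), beside 22.5% of all genes tested. At an unadjusted p under 0.05 there were 4 members, beside 33.1% of all genes. edgeR's exact test, which adds a variation between libraries of 9.58%, called none of the 10 and 0.713% of all genes. That variation was estimated from these same 2 libraries taken as 1 group, so it already holds the difference under test. The edgeR result for the 10 is therefore not separate evidence that they were alike.

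The counting intervals were narrowest for the genes with the most counts. Gata6 had a log2 ratio of 0.01 (95% counting interval -0.09 to 0.11). Nkx2-1 had -0.02 (-0.09 to 0.04), and 0.32 with spike-in scaling, close to the shift of all genes. Grhl2 had 0.26 (0.12 to 0.39), Klf5 0.19 (0.02 to 0.36) and Elf3 0.09 (-0.11 to 0.29). The 5 genes with a mean under 5 TPM were all lower in replicate 2, at -0.19 (-0.54 to 0.16) for Grhl1, -0.24 (-0.51 to 0.03) for Cebpa, -0.31 (-0.63 to 0.01) for Elf5, -0.36 (-0.71 to -0.01) for Ehf and -0.43 (-0.78 to -0.08) for Grhl3, although spike-in scaling turned Grhl1, Cebpa and Elf5 to higher. Of all tested genes under 5 TPM, 52.7% were lower in replicate 2. All intervals lay inside a 2-fold difference, and all 10 ratios lay inside the central 95% of tested genes, -0.70 to 0.59.

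**Figure D4:**
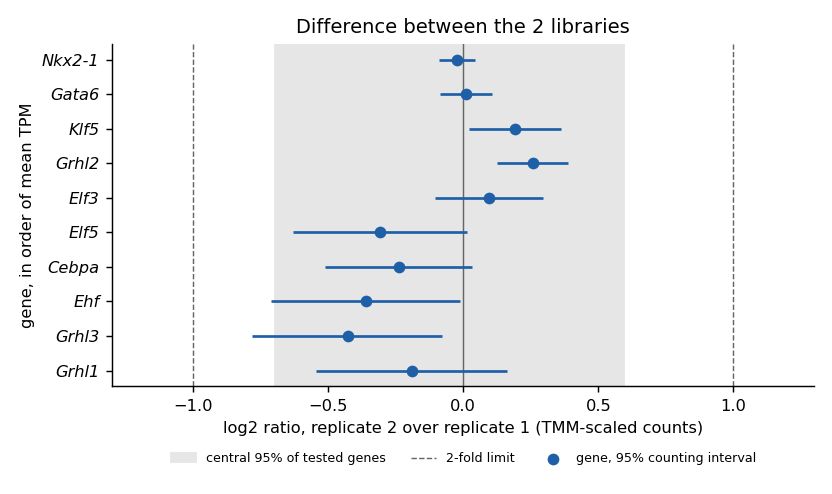
Log2 ratio of replicate 2 over replicate 1 (TMM-scaled counts) with 95% counting intervals, in order of mean TPM; the grey band is the central 95% of tested genes and dashed lines mark 2-fold. The ratios run from -0.43 for Grhl3 to 0.26 for Grhl2, and with spike-in scaling Nkx2-1, Grhl1, Elf5 and Cebpa turn to above 0.

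Lists of related genes were read in the same way, each by its median ratio beside -0.0016 for all tested genes. The 10 genes had a median of -0.11. Epithelial markers had -0.03, genes known to depend on grainyhead-like factors -0.02, and genes known to depend on Nkx2-1 -0.18, with no gene called in any of these lists. A lack of calls under the 2-fold rule does not mean equal levels. The 8 tested genes known to depend on Nkx2-1 had TMM-scaled ratios from -0.55 (Scgb3a2) to -0.02 (Sftpc). Other lung epithelial transcription factors had 18 of 22 detected, a median level of 9.99 and 10.6 TPM and a median ratio of 0.04, with none called. They were led by Id2 (372 and 357 TPM), Etv5 (174 and 195 TPM), Nfib (116 and 120 TPM) and Foxp1 (88.0 and 87.9 TPM), each above the level of Nkx2-1. The family medians were -0.07 for GATA, 0.01 for FOG, -0.09 for grainyhead-like and CP2, -0.13 for ELF and ETS, -0.02 for KLF and 0.05 for C/EBP genes, and no family gene was called.

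Of the markers of other tissues, those of heart and liver held called genes. Mesenchyme had a median ratio of -0.07, smooth muscle -0.04, endothelium -0.01 and macrophages -0.15, with none called. Heart muscle had 9 of 9 tested genes called lower in replicate 2, with a median of -4.002 that is the same with Nppa at the limit of 3 counts. The most abundant of them, the myosin light chain gene Myl7, fell by 4.02 and the cardiac actin gene Actc1 by 1.22 on the log2 scale. Nppa had 234 counts in replicate 1 and 0 in replicate 2, so no exact ratio is given for it. Of 5 liver genes tested 2 were called higher in replicate 2, Afp (1.09) and Apoa1 (1.29), and the list median was 1.09. Squamous epithelium had 0.02 and thymus epithelium 0.29, with none called. The part of these tissues in the members' levels was not tested.

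**Figure D5:**
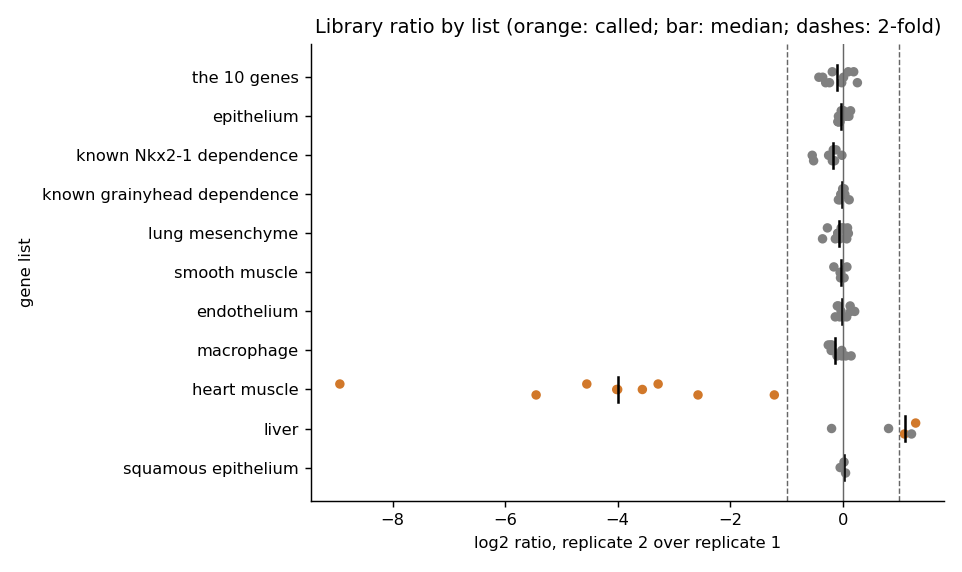
Log2 ratio of replicate 2 over replicate 1 for the tested genes of each list (points; orange if called), with the list median as a bar and dashed lines at 2-fold. The 10 genes lie between -0.43 and 0.26, while the called heart muscle genes lie below -1 and the 2 called liver genes above 1; the lowest heart point, Nppa, had 0 counts in replicate 2 and its place depends on the 0.5 added to each count.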

How the data were processed

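Total RNA of 2 libraries of E14.5 mouse lung was quantified by the authors. The deposited tables hold, per the file headers, an expected count (an estimated number of reads that need not be whole), TPM and FPKM per gene and transcript, each transcript's percent of its gene's TPM, posterior means and posterior SDs. TPM and FPKM are corrected for effective length, and deposited TPM was scaled over all features, spike-ins included. The deposited read-me files name mm10, GENCODE M4 and transcriptome alignments. The sources used here do not give the aligner, the quantification program or the use of strand. Names, coordinates (1-based) and transcript models came from GENCODE M21 on GRCm38, and 42462 of 43346 mouse genes matched. Deposited and M21 lengths were equal for 27 of the 31 transcripts.

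Expected counts were rounded and scaled by TMM (edgeR 4.0.16, R 4.3.3), with 0.5 added for ratios. Tests and figures used Python 3.11.15 with scipy 1.17.1. edgeR's quasi-likelihood test has no residual degrees of freedom with 1 library on each side, so an exact binomial test took its place. DESeq2 1.42.0 gave the alternative size factors. Alternatives covered scaling, filters on low values, posterior means and the detection limit.

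The members and the 21 gene lists (0 symbols unmatched) were chosen with earlier results of these data known. Named genes were all 10 members, at most 4 of each other list by mean TPM, genes called between the libraries, list genes at 0 counts, and annotated genes overlapping or near a member. Nkx2-5, Foxa2, Spdef, Tfcp2l1 and further relatives of the members were named as family or marker genes after their values were seen. Sequences came from RefSeq promoter windows (none for Gata6, Grhl2, Ehf and Klf5) and GENCODE M21 transcripts. Protein sequences were not used here.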

Additional observations from a re-analysis of the deposited data

How the results depend on the processing

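None of the 10 genes was called under any of the 7 alternatives to the main comparison. The number of genes called over the whole table was 169, and it was 290 with spike-in scaling, 538 with no filter on low values, 16 among genes with a mean of 10 TPM or more (where only 5 members could be tested) and 106 with edgeR's exact test. The filters on low values changed the number of genes tested, so 538 and 16 are not shares of the main 14870. Of 14870 genes tested, those under the adjusted p at any size numbered 3347, and 11580 with spike-in scaling and 116 with edgeR. Of the 10 members, those under it numbered 1, and 5 with spike-in scaling and 0 with edgeR. The variation used by edgeR came from the same 2 libraries. Spike-in scaling turned the log2 ratio to 0.32 for Nkx2-1, 0.15 for Grhl1, 0.035 for Elf5 and 0.10 for Cebpa, since it moved the median of all genes by 0.34. At a detection limit of 5 TPM, 5 members were detected in place of 10, and leaving out either replicate left 10. Rescaling TPM over mouse genes alone raised the mean levels. Nkx2-1 then had 83.9 TPM in place of 75.6, and Gata6 27.8 in place of 25.1. The SDs given with the levels do not cover this choice of scale. Posterior mean TPM gave 4.52 for Elf5 and 3.19 for Ehf, and the share of Ehf-201 was 32.8% by posterior means and 79.5% by counts in place of 45.5%. The share of Elf5-201 was 62.0% by posterior means and 88.5% by counts in place of 74.8%. That of Grhl2-201 was 59.99% by posterior means and 77.1% by counts in place of 63.7%. No paired analysis was possible because the design has 1 group. Depth limits the members under 5 TPM, whose intervals span most of the ratio range of the set. It also limits Grhl2-204 and the minor transcripts of Grhl1 and Ehf.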
